A study of Homo sapiens with 9 samples.

Results

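Interferon-stimulated genes are the genes that a cell switches on when it detects interferon, and their products sense, degrade or block viruses. A fixed list of 51 of them, matched by gene symbol, was followed in the deposited RNA sequencing counts of HaCaT cells. The table holds 58676 genes, of which 16239 were expressed enough to be tested, and all 51 listed genes were among those tested. The list was split by role into 11 sensors and RNA enzymes, 18 antiviral effectors, 9 genes of the ubiquitin-like and ADP-ribose pathway, 9 other induced proteins and 4 STAT and IRF regulators.

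HaCaT is an immortalised human keratinocyte line. The cells were grown in DMEM and kept for 14 h in 1% DMSO, in 250 nM CDDO-Me or in 10 µM PRL-295, with 3 libraries for each. CDDO-Me, also called bardoxolone methyl, is a triterpenoid electrophile and switches on NRF2, which drives antioxidant genes. PRL-295 is a code name, and the series title points to NRF2 activators that are not electrophiles. No interferon was added to any group, as far as the labels tell. The labels name DMSO for the control only, and whether the cultures with a compound also held it is not given. The labels do not say that replicate libraries stem from separate cultures, so each p-value measures the spread between these samples, which may be technical.

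Type I interferon binds the receptor formed by IFNAR1 and IFNAR2, which activates the kinases JAK1 and TYK2. These phosphorylate STAT2, which joins IRF9 in a complex that binds the interferon-stimulated response element in the promoters of the genes listed here. Keratinocytes, like most cells, keep many of these genes at a basal level without infection, and the sensors and regulators among them are themselves induced, so that the response reinforces itself.

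The response element itself could be looked up in RefSeq promoter windows on GRCh38.p14, from 250 bases before to 50 after a transcription start. Such windows were found for 43 of the 51 genes. They were not matched for OAS2, OASL, IFIT2, MX2, IFITM2, TRIM22, USP18 and IRF7. The letters GAAANNGAAA or, on the other strand, TTTCNNTTTC occurred in the windows of 29 of the 43 genes (67.4%) and of 1195 of all 27305 genes in the table (4.38%). Among genes with a single window the counts were 22 of 31 (71.0%) and 843 of 22114 (3.81%). Split by the call with CDDO-Me, the letters occurred for 13 of 21 listed genes called lower (61.9%) and 16 of 22 not called (72.7%). The shorter letters of the interferon gamma activated site, TTCNNNGAA, were present for 13 of 43 genes (30.2%) against 9.38% of all. Those of the antioxidant response element, TGANNNNGC on either strand, were present for 23 of 43 (53.5%) against 47.1% of all. The 3 motifs were counted separately and their matches can overlap. A match of letters is a description and not a site shown to be bound. The 6 stretches below are each from a gene with a single window, 5′ to 3′ on the strand of the gene. Each shows a match to the response element in capitals with its flanks. In ISG15, IFIT1, BST2 and IFIT5 a further match lies wholly or partly in the lower-case flank and is not marked. ISG15, IFIT1, BST2 and ISG20 are shown because they fell with CDDO-Me, and DDX60 and IFIT5 because they carry the same letters and were not called.
ISG15 (chr1:1013365-1013424, plus strand): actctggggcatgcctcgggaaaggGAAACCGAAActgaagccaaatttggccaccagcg
IFIT1 (chr10:89392495-89392554, plus strand): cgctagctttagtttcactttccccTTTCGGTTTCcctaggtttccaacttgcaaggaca
BST2 (chr19:17405720-17405779, minus strand): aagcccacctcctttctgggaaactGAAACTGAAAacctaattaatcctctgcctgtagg
ISG20 (chr15:88638922-88638981, plus strand): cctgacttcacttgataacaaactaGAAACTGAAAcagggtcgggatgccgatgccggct
DDX60 (chr4:168318771-168318830, minus strand): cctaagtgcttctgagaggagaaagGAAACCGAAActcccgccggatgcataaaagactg
IFIT5 (chr10:89414498-89414557, plus strand): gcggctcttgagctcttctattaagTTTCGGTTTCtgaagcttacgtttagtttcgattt

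Libraries held 23383800 to 32942156 counted reads, and a floor of 3 counts corresponds to 0.0911 to 0.128 counts-per-million (CPM). The library CDDO-Me 1 stood apart in detection, with 14543 genes that had a count against 17821 to 23271 in the other libraries. It listed HERC5, IFI44L and IRF9 at 0 counts, while every other library had counts of these genes. Within this bulk RNA, fewer cells that express a gene and less of its RNA per cell cannot be told apart. Levels below are CPM scaled by TMM, a correction for library composition, and compare libraries within a gene. The deposited FPKM, which is per kilobase of gene, is used where genes are compared with each other.

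Some of the interferon-stimulated genes fell after each compound, and none was called higher. After CDDO-Me, 27 of the 51 genes (52.9%) fell at an adjusted p below 0.05, beside 4.57% of all tested genes called lower and 4.65% called higher. No listed gene rose, with 1 above DMSO at an unadjusted p below 0.05 and 0 by DESeq2. After PRL-295, 7 of 51 (13.7%) fell, beside 0.222% of all tested genes called lower and 0.462% called higher. No listed gene rose with PRL-295 either, with 0 at an unadjusted p below 0.05 and 0 by DESeq2. The median log2 fold change of the 51 genes was -0.75 with CDDO-Me and -0.50 with PRL-295, where the medians over all tested genes were 0.0078 and -0.012. The fitted change was below 0 for 44 of the 51 genes with CDDO-Me and for 47 with PRL-295. All 3 CDDO-Me libraries lay below all 3 DMSO libraries for 39 genes (76.5%), beside 16.3% of all tested genes, and all above for 1, DDX58, beside 15.5%. The same held with PRL-295 for 29 genes (56.9%), beside 13.7% of all tested genes, and none lay above, beside 13.5%. Both comparisons use the same DMSO libraries, so their values are set side by side and not counted as separate evidence.

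The count with CDDO-Me moved less between settings than that with PRL-295. It was 34 by DESeq2, a tool the labels name beside edgeR, and ran from 19 to 32 when each library was left out in turn. Over all tested genes, 742 were lower with CDDO-Me in the fit of all 9 libraries, 1245 by DESeq2 and 203 to 1261 without a library. With PRL-295 the count of listed genes was 22 by DESeq2. It was 17 without CDDO-Me 1 and 12 without CDDO-Me 2, 1 without any DMSO library or without PRL-295 3, 2 without PRL-295 1 and 3 without PRL-295 2. The calls with PRL-295 over all tested genes moved in the same directions. Of these genes, 36 were lower in the fit of all 9 libraries and 189 by DESeq2. The number was 159 without CDDO-Me 1, 61 without CDDO-Me 2 and 4 to 9 without a DMSO library. It was 5, 13 and 2 without PRL-295 1, 2 and 3. Of the 27 genes called with CDDO-Me, 14 kept the call in all 9 leave-out fits and all 10 other settings, and of the 7 called with PRL-295, 1 did.

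**Figure D1:**
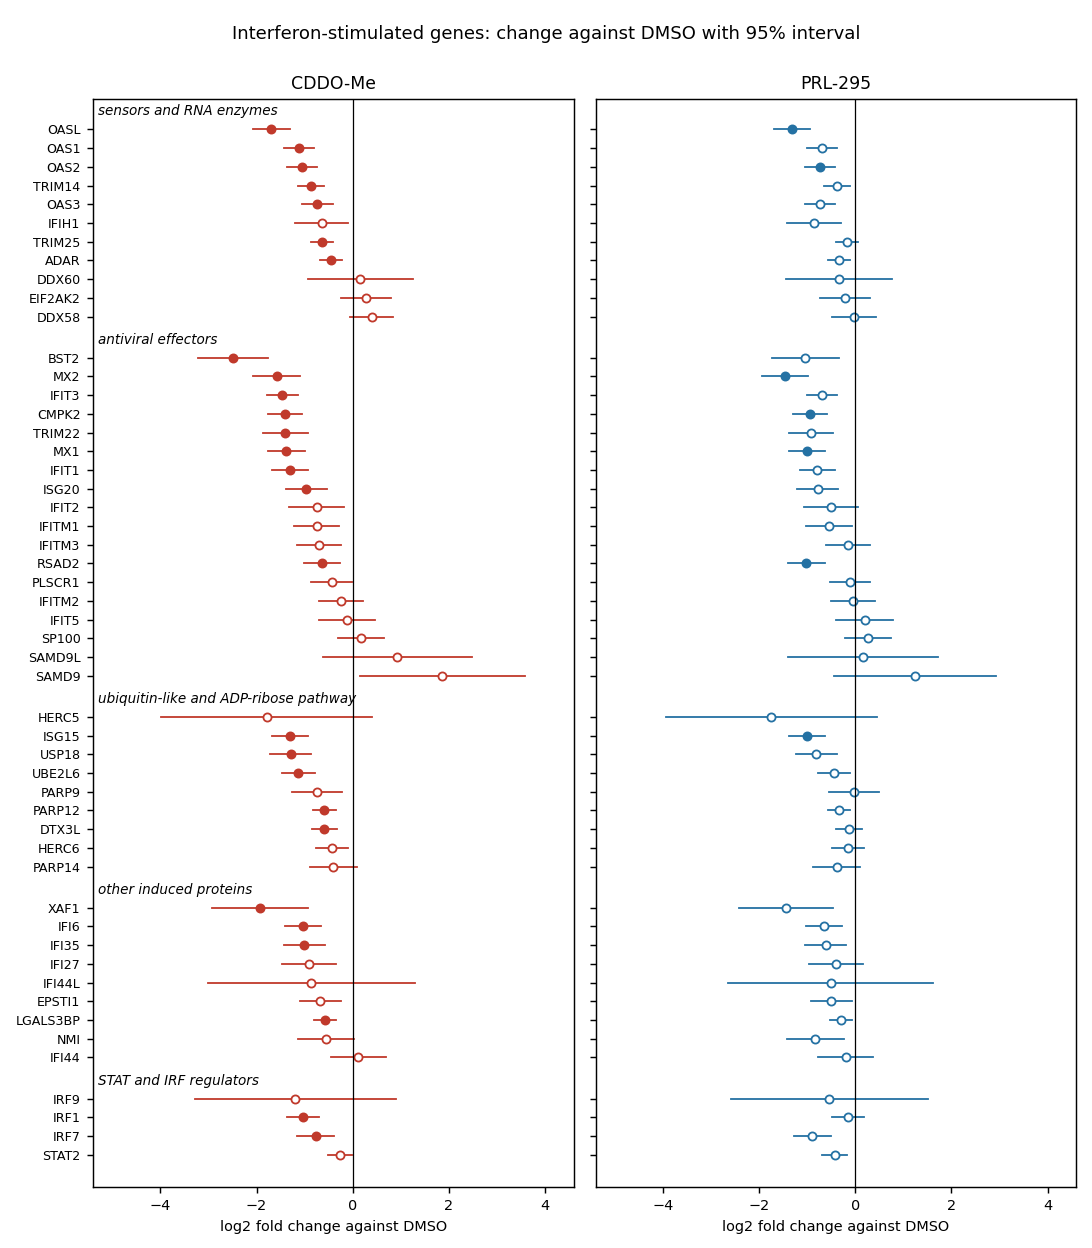
Fitted log2 fold change against DMSO (x axis) of each of the 51 genes, grouped by role, with CDDO-Me on the left and PRL-295 on the right. Points are estimates from 3 libraries per group, lines are 95% intervals, and filled points are called lower: 27 with CDDO-Me and 7 with PRL-295.

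In HaCaT cells kept in 1% DMSO the level of these genes ran over a wide range. The FPKM in DMSO was highest for IFITM3 (370 ± 86.9, SD, n = 3), an endosomal membrane protein that blocks virus entry. It was followed by IFI6 (330.2 ± 61.2) and ISG15 (322 ± 25.6), and these 3 did not differ beyond their spread. LGALS3BP (124 ± 9.84), IFIT3 (107 ± 17.96) and ADAR (100.1 ± 8.32) came next, so that 6 genes reached an FPKM of 100. The median gene was at 16.7. At the other end SAMD9L (0.936 ± 0.415), HERC5 (0.829 ± 0.125) and IFI44L (0.417 ± 0.176) were under an FPKM of 1. IRF9, the DNA-binding partner of STAT2, was low as well, at 1.46 ± 0.468. Whether reads of IRF9 were lost in the counting was not tested, so the low value does not show that the gene is barely expressed.

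Among the 11 sensors and RNA enzymes, 7 fell with CDDO-Me and none rose, with a median log2 fold change of -0.65. OAS1, OAS2, OAS3 and OASL all fell. The oligoadenylate synthetases bind double-stranded RNA and make the messenger that activates RNase L, and OAS1 (chr12:112906777-112933222), OAS3 (chr12:112938352-112973249) and OAS2 (chr12:112978395-113011723) are neighbours. OAS1 was at 84.4, 92.5 and 99.7 CPM in DMSO and 44.3, 38.4 and 45.3 with CDDO-Me (log2 fold change -1.11 ± 0.14 SE, adjusted p = 0.00117). OAS2 was at 244, 274 and 274 CPM in DMSO and 110.0, 113 and 156 with CDDO-Me (-1.06 ± 0.14, adjusted p = 0.00157). OAS3, at 643, 672 and 566 CPM in DMSO, was at 431, 286 and 411 with CDDO-Me (-0.74 ± 0.14, adjusted p = 0.0121). OASL is the relative that lacks the synthetase activity and enhances signalling by the RNA sensor RIG-I. Its level went from 90.4, 115 and 85.9 CPM in DMSO to 26.4, 28.2 and 35.6 with CDDO-Me (-1.69 ± 0.17, adjusted p = 0.000285), a 3.23-fold difference. For all 4 genes each CDDO-Me library lay below each DMSO library. The call for OAS3 ended without DMSO 1 (adjusted p = 0.0555) and without DMSO 2 (0.0646).

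Genes that act together with the RNA sensors fell as well. TRIM25, the ubiquitin ligase that activates RIG-I, was at 282, 319.7 and 274 CPM in DMSO and 198, 173 and 192 with CDDO-Me (log2 fold change -0.64 ± 0.10 SE, adjusted p = 0.00509). TRIM14, an adaptor at the mitochondrial hub of the same pathway, was at 277, 312 and 273 CPM in DMSO and 137, 150.3 and 184 with CDDO-Me (-0.87 ± 0.12, adjusted p = 0.00203). ADAR, which edits adenosine to inosine in double-stranded RNA, was at 778, 927 and 792 CPM in DMSO and 654, 541 and 637 with CDDO-Me (-0.45 ± 0.11, adjusted p = 0.028). The groups did not overlap for any of these 3 genes. ADAR lost its call in 6 of the 9 leave-out fits, namely without any DMSO library, CDDO-Me 2, CDDO-Me 3 or PRL-295 3 (adjusted p = 0.0599 to 0.133), and with the GC and length correction described below (0.135). TRIM25 lost it with that correction (adjusted p = 0.0511). In GENCODE TRIM14 overlaps NANS, so its reads could include some of that gene.

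Of the sensors and RNA enzymes, DDX58, IFIH1, EIF2AK2 and DDX60 were not called. DDX58, which encodes RIG-I, was at 42.3, 44 and 45.1 CPM in DMSO and 47.5, 71.9 and 53.6 with CDDO-Me, so its CDDO-Me libraries were all above DMSO (log2 fold change 0.40, 95% interval -0.05 to 0.85, adjusted p = 0.249). IFIH1, which encodes the sensor MDA5, went the other way, with 60.8, 63.8 and 50.1 CPM in DMSO and 34.5, 41.7 and 35.3 with CDDO-Me (-0.65, interval -1.20 to -0.09, adjusted p = 0.134). EIF2AK2, the RNA-dependent kinase that halts translation, and the helicase DDX60 had intervals of -0.24 to 0.80 and -0.93 to 1.25. DDX58, EIF2AK2 and DDX60 were 3 of the 7 listed genes with a fitted change above 0, and the others were SAMD9, SAMD9L, SP100 and IFI44.

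Of the 18 antiviral effectors, 9 fell with CDDO-Me and none rose, with a median of -0.75. The IFIT proteins bind foreign RNA and block its translation, and their genes lie together on chromosome 10. IFIT3 (chr10:89327894-89340971) was at 244, 341 and 261 CPM in DMSO and 94.3, 101 and 111 with CDDO-Me (log2 fold change -1.47 ± 0.15 SE, adjusted p = 0.000262). IFIT1 (chr10:89392546-89406486), which carries the response element printed above, was at 170.4, 190.3 and 198 CPM in DMSO and 59.8, 84.4 and 83.1 with CDDO-Me (-1.30 ± 0.17, adjusted p = 0.00134). IFIT2 was not called, at 67.4, 115 and 93.5 CPM in DMSO and 51.8, 59.3 and 53.1 with CDDO-Me (adjusted p = 0.0942). IFIT5 was at 28.4, 39.8 and 40.6 CPM in DMSO and 24.3, 42.1 and 34.05 with CDDO-Me, and these groups overlapped (adjusted p = 0.83). The annotated intervals of IFIT1, IFIT2 and IFIT3 overlap LIPA, and the strand setting of the counting is not stated, so reads of LIPA cannot be told apart from theirs where they overlap.

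The MX GTPases, which trap viral ribonucleoproteins, fell together. MX1 (chr21:41420304-41459214) was at 310.2, 369.9 and 349 CPM in DMSO and 112, 107 and 176 with CDDO-Me (log2 fold change -1.38 ± 0.17 SE, adjusted p = 0.00111). MX2 (chr21:41361943-41409390), next to it, was at 92.8, 98.7 and 104 CPM in DMSO and 38.3, 21 and 39.9 with CDDO-Me (-1.58 ± 0.22, adjusted p = 0.00215). Both genes had CDDO-Me libraries well below every DMSO library. BST2, the tetherin that holds budding virus at the cell surface, had the lowest fitted change of the list. It was at 4.98, 9.80 and 9.43 CPM in DMSO and 1.35, 1.46 and 1.52 with CDDO-Me (-2.48 ± 0.33, adjusted p = 0.00158), a 5.59-fold difference on a low level.

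RSAD2 (chr2:6865806-6898239, plus strand), the radical enzyme viperin, and CMPK2 (chr2:6840570-6866635, minus strand), a mitochondrial nucleotide kinase, lie head to head and overlap at their starts. CMPK2 was at 28.6, 32.6 and 34.2 CPM in DMSO and 12.5, 10.8 and 12.6 with CDDO-Me (log2 fold change -1.41 ± 0.16 SE, adjusted p = 0.0006). RSAD2 was at 21.1, 24.4 and 22.4 CPM in DMSO and 12.8, 15.3 and 15.7 with CDDO-Me (-0.63 ± 0.17, adjusted p = 0.0449). Neither gene had overlapping groups. Reads from the shared stretch cannot be assigned to a strand here. The RSAD2 call ended in 8 of the 9 leave-out fits, all but that without PRL-295 2 (adjusted p = 0.0572 to 0.166). It also ended in 5 of the 10 other settings (adjusted p = 0.0541 to 0.112). Those were both limma fits, the fit without a filter, the replicate block and the 6 libraries alone.

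ISG20, an exonuclease that degrades RNA, was at 16.5, 15.1 and 19.6 CPM in DMSO and 8.64, 8.86 and 8.71 with CDDO-Me (log2 fold change -0.97 ± 0.20 SE, adjusted p = 0.0138). Its call ended without DMSO 1 (adjusted p = 0.0537) and without DMSO 3 (0.0688). TRIM22, a ubiquitin ligase that restricts viral transcription, was at 70.5, 87.9 and 92.2 CPM in DMSO and 23.1, 28.8 and 43.02 with CDDO-Me (-1.40 ± 0.21, adjusted p = 0.00329). TRIM22 overlaps its relative TRIM5. Both ISG20 and TRIM22 were lower in every CDDO-Me library than in any DMSO library.

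The other 9 effectors did not pass. IFITM3, the most abundant of the list by FPKM, was at 409, 452 and 628 CPM in DMSO and 240.2, 320.2 and 357 with CDDO-Me (log2 fold change -0.70, 95% interval -1.16 to -0.24, adjusted p = 0.0599). IFITM1 had similar values (-0.75, interval -1.23 to -0.28, adjusted p = 0.0525), and IFITM2 was closer to 0 (-0.24, adjusted p = 0.516). IFITM1 and IFITM2 overlap each other and are near copies of IFITM3, so reads may be split between them. SAMD9 and SAMD9L, neighbouring genes of a restriction factor family, had the highest fitted changes of the list, with a wide spread between libraries. SAMD9 was at 18.3, 9.64 and 4.93 CPM in DMSO and 11.1, 78.8 and 29.8 with CDDO-Me, with overlapping groups and an interval of 0.16 to 3.58 (adjusted p = 0.157). The nuclear body protein SP100 (0.18, adjusted p = 0.661) and the phospholipid scramblase PLSCR1 (-0.44, adjusted p = 0.178) completed the group.

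Of the 9 genes of the ubiquitin-like and ADP-ribose pathway, 5 fell with CDDO-Me and none rose, and for all 9 every CDDO-Me library lay below every DMSO library. ISG15 is a ubiquitin-like protein that is attached to other proteins. The gene (chr1:1001138-1014541) was at 273, 309 and 324 CPM in DMSO and 115, 97.7 and 155 with CDDO-Me (log2 fold change -1.30 ± 0.17 SE, adjusted p = 0.00134). UBE2L6 is the conjugating enzyme that carries ISG15. It was at 173, 189 and 223 CPM in DMSO and 77.1, 84.6 and 106 with CDDO-Me (-1.13 ± 0.15, adjusted p = 0.0017). USP18, which removes ISG15 and also restrains the interferon receptor, was at 57.7, 67.6 and 61.2 CPM in DMSO and 30.6, 18.4 and 27.5 with CDDO-Me (-1.29 ± 0.20, adjusted p = 0.00329). The ligase that completes the chain, HERC5, was barely expressed, at 4.33, 4.21 and 3.25 CPM in DMSO and 0, 2.61 and 0.804 with CDDO-Me (-1.78, interval -3.98 to 0.41, adjusted p = 0.287). Its relative HERC6 was at -0.43 (adjusted p = 0.0963). The USP18 call ended with the GC and length correction (adjusted p = 0.064).

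DTX3L and PARP9 form a ubiquitin ligase complex that acts in DNA repair and interferon responses, and their genes overlap at their starts on opposite strands of chromosome 3. DTX3L was at 187, 236 and 204 CPM in DMSO and 125, 148 and 145 with CDDO-Me (log2 fold change -0.59 ± 0.12 SE, adjusted p = 0.0136). PARP9 was at 82.2, 99.1 and 113 CPM in DMSO and 34.5, 70.4 and 70.6 with CDDO-Me and did not pass (-0.74, adjusted p = 0.0739). PARP12, which attaches single ADP-ribose units to proteins, was at 104, 104 and 105 CPM in DMSO and 64.98, 69.2 and 74.1 with CDDO-Me (-0.59 ± 0.11, adjusted p = 0.00821). Its relative PARP14 was at -0.40 (adjusted p = 0.286). The DTX3L call ended without DMSO 2 (adjusted p = 0.0781), and the PARP12 call with the GC and length correction (0.0936).

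Among the 9 other induced proteins, 4 fell with CDDO-Me and none rose, with a median of -0.86. IFI6, a small membrane protein that protects cells from flaviviruses, was at 231, 283 and 338 CPM in DMSO and 135, 111 and 170.0 with CDDO-Me (log2 fold change -1.04 ± 0.17 SE, adjusted p = 0.00535). IFI35 was at 70.9, 74.98 and 79.3 CPM in DMSO and 29.1, 33.2 and 49.5 with CDDO-Me (-1.01 ± 0.19, adjusted p = 0.011). Its binding partner NMI had an overlapping library, CDDO-Me 2, and was at 28.7, 28.1 and 26.2 CPM in DMSO and 14.1, 27.5 and 14.9 with CDDO-Me (adjusted p = 0.215). XAF1 counters the apoptosis inhibitor XIAP. It was at 30.9, 28.4 and 26.6 CPM in DMSO and 2.88, 8.11 and 11.7 with CDDO-Me (-1.93 ± 0.45, adjusted p = 0.0264), and CDDO-Me 1 was the lowest of its libraries. LGALS3BP, a secreted glycoprotein, was at 395, 464 and 463 CPM in DMSO and 301, 270.4 and 309 with CDDO-Me (-0.58 ± 0.10, adjusted p = 0.00786). In each of these 4 called genes the groups did not overlap. IFI27, at 50.04, 63.5 and 93.1 CPM in DMSO and 27.8, 35.7 and 46.99 with CDDO-Me, and EPSTI1 missed the threshold (adjusted p = 0.0509 and 0.056). IFI44 and IFI44L had intervals of -0.45 to 0.69 and -3.00 to 1.29.

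Several calls of this group ended when a library was left out or with the GC and length correction. XAF1 lost its call without any DMSO library or without CDDO-Me 2 (adjusted p = 0.0559 to 0.0908). The IFI35 call ended without DMSO 2 (adjusted p = 0.0515), as did that of LGALS3BP (0.0514). With the GC and length correction IFI6 (adjusted p = 0.142) and LGALS3BP (0.409) were not called.

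Of the 4 STAT and IRF regulators, IRF1 and IRF7 fell with CDDO-Me. IRF1, a transcription factor that keeps many of these genes at their basal level, was at 55.5, 56.9 and 52.4 CPM in DMSO and 24.3, 26.7 and 29.7 with CDDO-Me (log2 fold change -1.03 ± 0.15 SE, adjusted p = 0.0027). IRF7, the factor that amplifies interferon production, was at 144, 164 and 138 CPM in DMSO and 103, 61.7 and 97.8 with CDDO-Me (-0.77 ± 0.18, adjusted p = 0.0235). Neither had overlapping groups. IRF7 was not called without any DMSO library (adjusted p = 0.054 to 0.107) or with the GC and length correction (0.417). STAT2 was at 137, 156 and 149 CPM in DMSO and 129, 106 and 133 with CDDO-Me (-0.27, 95% interval -0.52 to -0.01, adjusted p = 0.171). IRF9 had 6.36, 3.53 and 6.59 CPM in DMSO and 0, 2.61 and 4.65 with CDDO-Me, with an interval of -3.27 to 0.89 that covers large changes in both directions. IRF9 also shares its locus with a readthrough gene.

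With PRL-295 fewer of these genes passed the threshold, and the 7 that fell came from 3 of the 5 roles: 2 sensors, 4 effectors and ISG15. OASL was at 41.4, 41.6 and 33.2 CPM with PRL-295, against 90.4, 115 and 85.9 in DMSO (log2 fold change -1.33 ± 0.17 SE, adjusted p = 0.00483), and it kept its call in every leave-out fit and setting. MX2 was at 41.8, 34.2 and 31.4 CPM with PRL-295 (-1.46 ± 0.22, adjusted p = 0.0158), where DMSO had 92.8, 98.7 and 104. ISG15 was at 142, 173 and 135 CPM with PRL-295 (-1.01 ± 0.17, adjusted p = 0.0247), against 273, 309 and 324 in DMSO. All 3 genes were lower in each PRL-295 library than in any DMSO library. CMPK2, at 28.6, 32.6 and 34.2 CPM in DMSO, was at 17.3, 16.4 and 15.8 with PRL-295 (-0.95 ± 0.16, adjusted p = 0.0254). MX1 was at 173, 165 and 174 CPM with PRL-295 (-1.01 ± 0.17, adjusted p = 0.0281), close to 2.01-fold below DMSO. RSAD2 was at 12.1, 10.02 and 11.5 CPM with PRL-295 (-1.02 ± 0.17, adjusted p = 0.0281). OAS2, the call nearest the threshold, was at 171, 157 and 151 CPM (-0.73 ± 0.14, adjusted p = 0.0478). None of these 4 genes had overlapping groups either.

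Calls with PRL-295 other than OASL depended on which libraries were used. Without any DMSO library the adjusted p was 0.0657 to 0.0758 for MX2, 0.0903 to 0.158 for MX1 and 0.098 to 0.158 for RSAD2. It was 0.0856 to 0.137 for CMPK2, 0.0843 to 0.126 for ISG15 and 0.134 to 0.23 for OAS2. Leaving out any PRL-295 library ended the calls of OAS2 (adjusted p = 0.131 to 0.232), MX1 (0.0961 to 0.129), RSAD2 (0.0987 to 0.156) and CMPK2 (0.0819 to 0.174). MX2 lost its call without PRL-295 2 (adjusted p = 0.052) or PRL-295 3 (0.0815), and ISG15 without PRL-295 1 (0.13) or PRL-295 3 (0.157). CMPK2 and RSAD2 also lost theirs without CDDO-Me 3 (adjusted p = 0.0555 and 0.0583), a library that enters this comparison only through the shared estimate of the spread. Both limma fits ended the call of OAS2 (adjusted p = 0.0605 and 0.0653), and the GC and length correction that of ISG15 (0.0744).

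With PRL-295, 29 of the 51 genes were below DMSO at an unadjusted p below 0.05, beside 862 of all 16239 tested genes. Of the 29, 22 missed the adjusted threshold. OAS3 missed it narrowly, at 380.3, 380.0 and 369 CPM with PRL-295 (log2 fold change -0.74, adjusted p = 0.0502), and so did IRF7, at 79.8, 85.7 and 74.8 CPM (-0.89, adjusted p = 0.0505). OAS1 was at 53.5, 67.2 and 51.4 CPM (-0.68, adjusted p = 0.06), IFIT3 at 196, 157 and 172 (-0.69, adjusted p = 0.0621) and IFIT1 at 129, 88.1 and 107 (-0.79, adjusted p = 0.0666). These 5 genes also had every PRL-295 library below every DMSO library. Among the regulators, IRF1 was at 43.8, 58.5 and 46.2 CPM with PRL-295, which overlapped its DMSO libraries (-0.15, 95% interval -0.48 to 0.18, adjusted p = 0.768). STAT2 was at 108, 110.1 and 110.2 CPM (-0.43, interval -0.69 to -0.18, adjusted p = 0.134).

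ADAR, TRIM14, ISG20, TRIM22, PARP12, IFI35 and LGALS3BP, which were called with CDDO-Me, did not pass with PRL-295, and each had all 3 PRL-295 libraries below DMSO. ADAR was at 660.3, 649 and 669 CPM with PRL-295 (log2 fold change -0.34, adjusted p = 0.211) and TRIM14 at 217, 226 and 217 (-0.38, adjusted p = 0.202). The effectors ISG20 and TRIM22 were at 10.2, 11.2 and 8.36 CPM (-0.78, adjusted p = 0.117) and at 48.5, 42.4 and 41.9 CPM (-0.92, adjusted p = 0.0899). PARP12 was at 78.2, 87.2 and 82.3 CPM (-0.34, adjusted p = 0.2). IFI35 was at 48.9, 55.5 and 42.3 CPM (-0.62, adjusted p = 0.198) and LGALS3BP at 344, 377 and 361 (-0.29, adjusted p = 0.264).

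By role, the median log2 fold change with PRL-295 was -0.38 for the sensors and RNA enzymes, -0.62 for the effectors, -0.39 for the ubiquitin-like and ADP-ribose pathway, -0.51 for the other induced proteins and -0.49 for the regulators. BST2, the gene with the lowest fitted change with CDDO-Me, was at 3.73, 4.30 and 3.77 CPM with PRL-295, between the other groups (log2 fold change -1.04, 95% interval -1.73 to -0.34, adjusted p = 0.19). In the ISG15 pathway USP18 was at 32.6, 41.2 and 32.7 CPM (-0.81, adjusted p = 0.104) and UBE2L6 at 137, 165 and 129.6 (-0.44, adjusted p = 0.243). HERC5 was low in all 3 PRL-295 libraries, at 0.984, 1.33 and 1.18 CPM (-1.75, interval -3.94 to 0.45, adjusted p = 0.512). TRIM25 and DTX3L, which were called with CDDO-Me, were at 257, 276 and 248 and 201, 182 and 190.4 CPM with PRL-295, and their groups overlapped DMSO (intervals -0.40 to 0.06 and -0.39 to 0.13). XAF1 was spread over 14.8, 5.56 and 11.3 CPM, all below DMSO (-1.44, interval -2.42 to -0.46, adjusted p = 0.197). IFI6 was at 179, 196 and 172 CPM (-0.64, adjusted p = 0.134) and IFITM3 at 375, 568 and 396 (-0.15, interval -0.61 to 0.30), which overlapped DMSO. The 4 genes with a fitted change above 0 were SAMD9, SAMD9L, SP100 and IFIT5, of which SAMD9 was at 54.5, 9.86 and 13.5 CPM (adjusted p = 0.553). The sensors DDX58 and IFIH1 were at 54.4, 32.03 and 42.9 and 43.9, 18.9 and 33.2 CPM, with the IFIH1 libraries all below DMSO (-0.87, interval -1.42 to -0.31, adjusted p = 0.174).

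**Figure D2:**
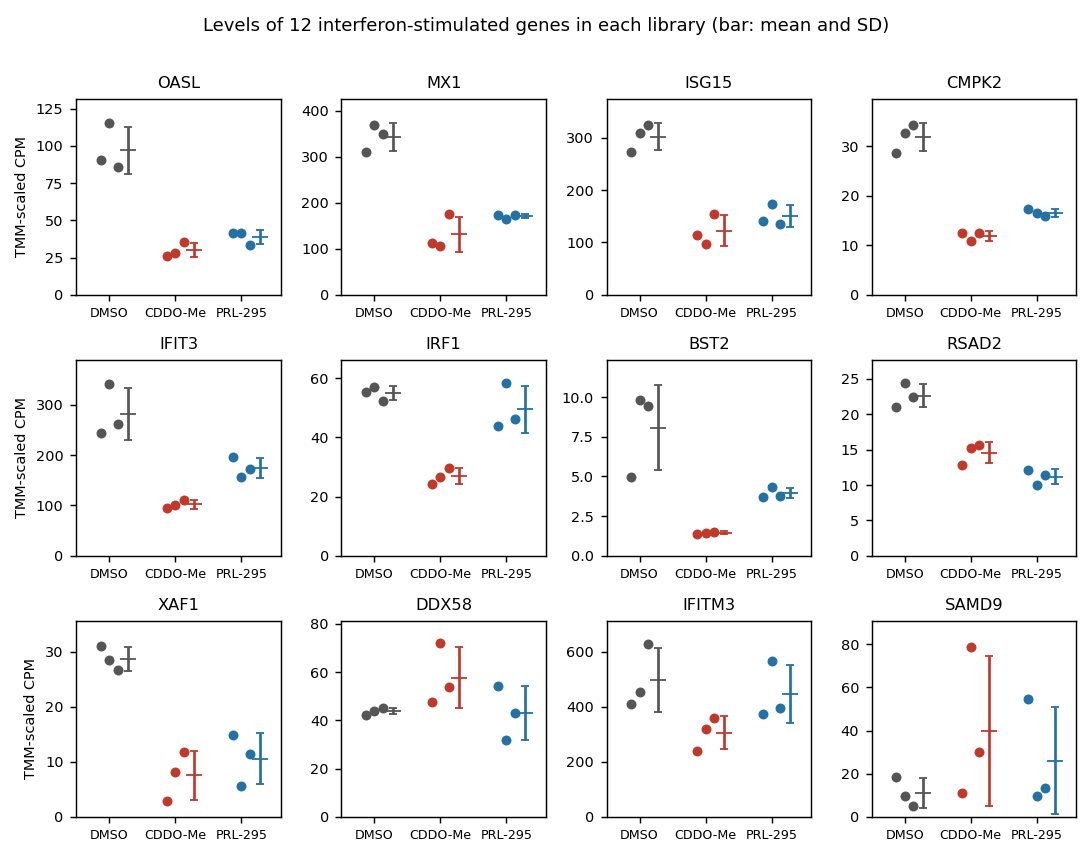
TMM-scaled CPM (y axis, from 0) of 12 of the genes in each of the 9 libraries; points are libraries and bars beside them are the mean and SD of 3. OASL, MX1, ISG15, CMPK2 and RSAD2 were lower in every library of both compounds than in DMSO, IRF1 was lower in every CDDO-Me library and overlapped DMSO with PRL-295, and SAMD9 varied widely within groups.

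The compounds were also set against each other directly, at doses that differ (10 µM PRL-295 and 250 nM CDDO-Me). Of the 51 genes, 2 were higher with PRL-295 than with CDDO-Me and none was lower, beside 0.905% of all tested genes called higher and 0.684% called lower. DESeq2 called 8 higher and 0 lower, beside 579 and 475 of all tested genes. At an unadjusted p below 0.05 the counts were 18 and 1, beside 1496 and 1300 of all tested genes. The 3 PRL-295 libraries were all above the CDDO-Me libraries for 17 genes and all below for 1, RSAD2, beside 14.4% of all tested genes above and 10.2% below. IRF1 was at 24.3, 26.7 and 29.7 CPM with CDDO-Me and 43.8, 58.5 and 46.2 with PRL-295 (log2 fold change 0.88 ± 0.15 SE, adjusted p = 0.0172). IFIT3 was at 94.3, 101 and 111 CPM with CDDO-Me and 196, 157 and 172 with PRL-295 (0.78 ± 0.14, adjusted p = 0.0236). In both genes the PRL-295 libraries lay above every CDDO-Me library. UBE2L6 (0.69, 95% interval 0.36 to 1.03, adjusted p = 0.0505), TRIM25 (0.47, interval 0.24 to 0.70, adjusted p = 0.0513) and BST2 (1.45, interval 0.73 to 2.16, adjusted p = 0.0531) missed the threshold narrowly. For MX2 the difference was 0.11 (interval -0.37 to 0.60) and for OAS3 0.00 (interval -0.32 to 0.32).

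Neither direct call was stable. IFIT3 lost it without CDDO-Me 3 (adjusted p = 0.0606), PRL-295 1 (0.0809) or PRL-295 3 (0.0718), with the 6 libraries alone (0.0631) and with the GC and length correction (0.209). IRF1 lost it without PRL-295 2 (adjusted p = 0.0551) or PRL-295 3 (0.0709) and with the 6 libraries alone (0.122).

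Summed over the 51 genes, the level was 7328 ± 526 CPM in DMSO (SD, n = 3), 4419 ± 382 with CDDO-Me and 5272 ± 171 with PRL-295. The DMSO libraries ran from 6734 to 7734, the CDDO-Me libraries from 4151 to 4857 and the PRL-295 libraries from 5107 to 5449, so that no group overlapped another. Sensors and RNA enzymes made up 2767 ± 211 CPM in DMSO, 1832 ± 124 with CDDO-Me and 1993 ± 86.0 with PRL-295. Effectors made up 2039 ± 241, 1111 ± 203 and 1459 ± 57.2 in the same order. The 4 regulators were at 357 ± 20.8 CPM in DMSO, 239 ± 37.3 with CDDO-Me and 243 ± 12.9 with PRL-295, and the sums of the compounds overlapped. These sums are led by abundant genes such as ADAR and OAS3 and carry no test.

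**Figure D3:**
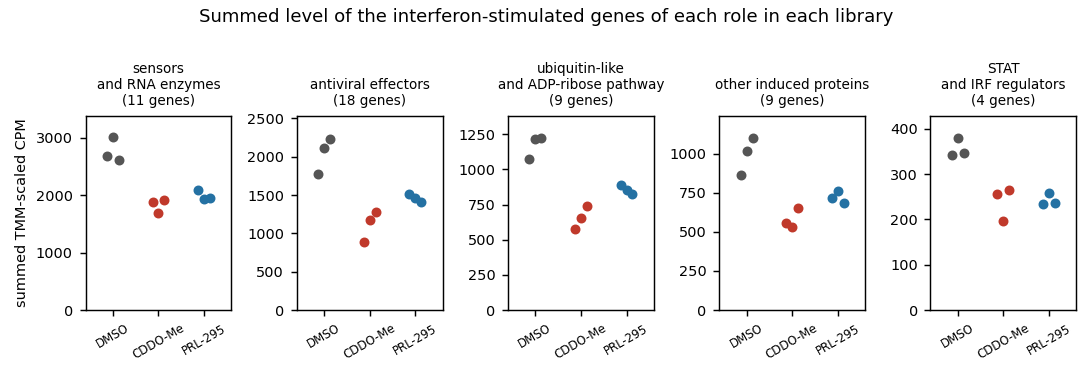
Summed TMM-scaled CPM (y axis, from 0) of the genes of each of the 5 roles, with 1 point per library. In every role all 3 CDDO-Me and all 3 PRL-295 libraries lay below the DMSO libraries.

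Libraries differed in how their levels followed GC content, and the calls did too. Across all tested genes, the correlation of a library's deviation with GC content was 0.206 to 0.271 in the DMSO libraries, -0.017, -0.55 and -0.14 in CDDO-Me 1 to 3 and -0.33, 0.269 and -0.075 in PRL-295 1 to 3. The 27 genes called with CDDO-Me had a median GC content of 51.6%, against 42.7% for the 24 not called. None of the 9 listed genes under 41% GC was called before the correction below, a limit chosen after the values were seen. Over the 51 genes, Pearson's r between GC content and the log2 fold change was -0.45 with CDDO-Me and -0.30 with PRL-295, as a description of genes that share libraries. Over all tested genes it was -0.36 and -0.30. After each library was corrected for its trend with GC content and gene length, r over the 51 genes was -0.024 and 0.029. With this correction 25 genes were called lower with CDDO-Me, 20 of them among the 27, beside 242 of all 16239 tested genes. PLSCR1, at 39.6% GC, gained a call (adjusted p = 0.00456), as did PARP9 (0.00595), PARP14 (0.0125), NMI (0.0384) and EPSTI1 (0.0403). For 47 of 51 the change was below 0, and the median was -0.77. With PRL-295 the correction called 11 lower, 6 of them among the 7, beside 32 of all tested genes, and the median was -0.58. IFIT1 (adjusted p = 0.00135), NMI (0.019), TRIM22 (0.0228), IFIH1 (0.0407) and XAF1 (0.0476) gained a call with PRL-295. The change of SAMD9 with CDDO-Me was 1.04 after the correction and 1.87 before it, and that of DDX58 was 0.04 and 0.40.

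**Figure D4:**
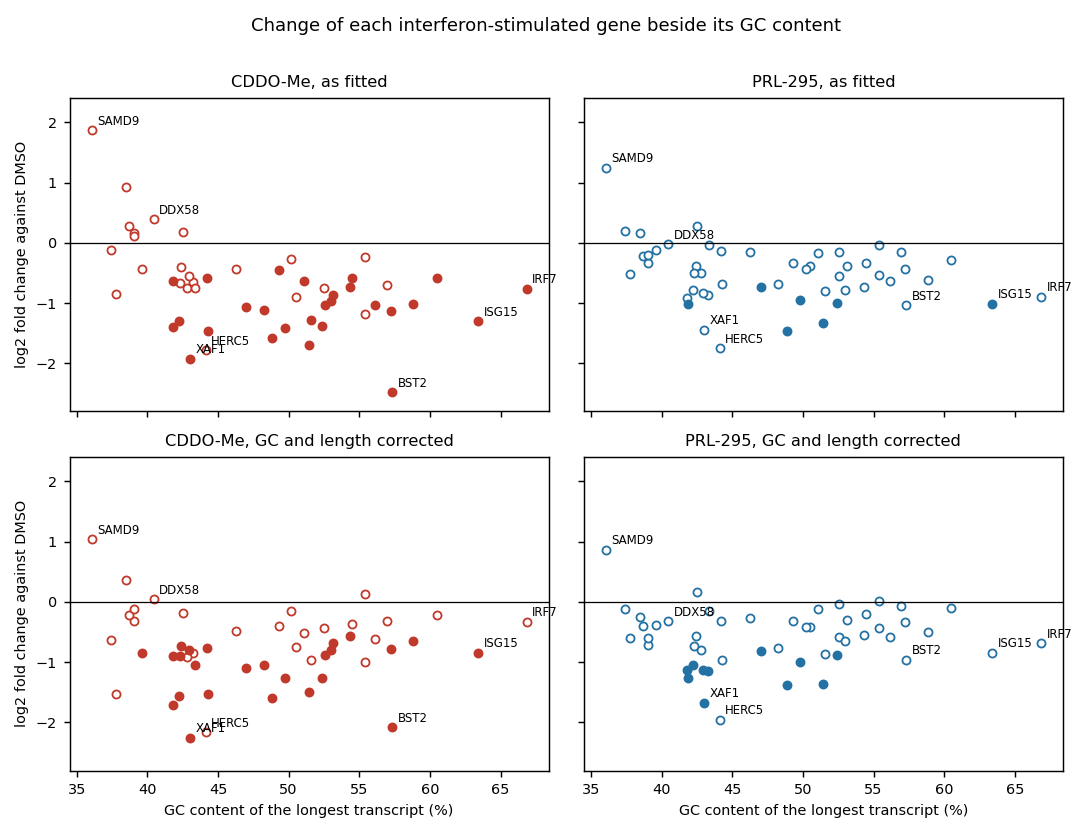
Log2 fold change against DMSO (y axis) of each of the 51 genes beside the GC content of its longest transcript (x axis, percent), as fitted (top) and with the GC and length correction (bottom); filled points are called lower. Before correction the low-GC genes lie higher than the rest, and after it r over the 51 genes is -0.024 with CDDO-Me and 0.029 with PRL-295.

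Outside the list, 37 other genes of the interferon pathway were followed, of which 27 were tested. With CDDO-Me 1 rose and none fell, beside 4.65% of all tested genes called higher, so that the share was near the background (5 above and 6 below DMSO at an unadjusted p below 0.05, and 4 higher and 3 lower by DESeq2). That gene was SOCS1, which inhibits the receptor's kinases. It was at 2.87, 4.30 and 2.93 CPM in DMSO, 11.8, 7.80 and 6.68 with CDDO-Me and 5.002, 6.66 and 5.88 with PRL-295, and the CDDO-Me libraries were all above DMSO (log2 fold change 1.38 ± 0.30 SE, adjusted p = 0.0188). Its call ended without DMSO 1 (adjusted p = 0.0881) and without DMSO 3 (0.0793). With PRL-295 none of the 27 passed in either direction (2 above and 5 below at an unadjusted p below 0.05, and 1 lower by DESeq2), and none passed in the direct comparison (1 above and 2 below, and 0 by DESeq2).

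The receptor gene IFNAR1 was at 31.6, 41.7 and 30.6 CPM in DMSO and 54, 56.5 and 39.1 with CDDO-Me (95% interval 0.13 to 0.93, adjusted p = 0.093). IFNAR2 was too low to test, at 0.423 CPM or less in every library, and its neighbour IL10RB was at 0.921 CPM or less. Whether reads of these genes were lost in the counting was not tested, so their low counts do not show that the genes are silent. The interferon genes were at or near 0 throughout. IFNG, IFNA1 and IFNL2 were listed at 0 in most libraries, IFNB1 reached 0.250 CPM in DMSO 3, IFNK 0.406, IFNL1 0.136 and IFNL3 0.607, and IFNE, the only one tested, reached 2.05 in PRL-295 1 (adjusted p = 0.468 with CDDO-Me and 0.537 with PRL-295).

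The libraries carried keratinocyte RNA, and markers of cells that could bring in interferon-stimulated transcripts were low or absent. All 8 keratinocyte markers were expressed, with KRT5 at 5481 to 5641 CPM in DMSO. Their summed level moved with the groups, from 15635 to 16758 CPM in DMSO to 19573 to 22732 with CDDO-Me and 12926 to 13897 with PRL-295. With CDDO-Me 5 of the 8 rose, beside 4.65% of all tested genes called higher. In the direct comparison 5 of the 8 were lower with PRL-295, beside 0.684% of all tested genes. The part of this shift of the markers in the results above was not tested. Immune markers summed to 0.890 to 1.86 CPM in DMSO, 0.0313 to 0.761 with CDDO-Me and 0.925 to 2.06 with PRL-295, with NKG7 at 0 in every library. Of the plasmacytoid dendritic cell markers, CLEC4C was at 0 throughout and the sum of 5.29 to 9.92 CPM over all libraries came mostly from IL3RA. Fibroblast markers summed to 7.16 to 13.0 CPM, nearly all of it COL1A1, with COL3A1, DCN and LUM at 0. Endothelial markers summed to 0.125 to 2.31 CPM with PECAM1 at 0, and melanocyte markers to 4.07 to 9.95 CPM with TYR at 0.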

How the data were processed

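Per the labels' protocols, total RNA was taken with a Qiagen kit, STAR 2.5 aligned the paired-end reads, and HTSeq 0.6.1 assigned them to genes. The submitters' processing notes name hg38, and the annotation release and strand setting are not given in the sources used here. The deposited count table holds raw, whole numbers of reads. The authors derived FPKM from gene length and read count, and 100% of the deposited FPKM were recovered that way within 0.1%.

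Groups and replicate numbers came from the sample titles. Libraries of a group differed beyond counting noise, and all 9 were used. The floor of 3 counts covers counting error only.

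For testing, edgeR 4.0.16 in R 4.3.3 fitted quasi-likelihood models to the counts, in a single fit of all 9 libraries, with filterByExpr by group, TMM scaling and Benjamini-Hochberg adjustment over 16239 genes in each of 3 comparisons, at a threshold of 0.05. Intervals are 95% intervals of the log2 fold change, and CPM, FPKM and summed levels are given per library or as mean ± SD. The gene list, its roles, the pathway list and the markers were chosen with earlier results of these data known. By rule, all 51 listed genes were accounted for. Those called in any comparison were given with their value in every library and the others by level, range, interval or count. Of the pathway list, the genes called in any comparison were named, as were the type I receptor genes and the interferon genes whatever their values. The rule also names a gene outright that is not reported here.

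Alternatives were DESeq2 1.42.0, RLE or library-size scaling, no filter, a minimum of 1 CPM in 3 libraries, limma 3.58.1 on log2(FPKM + 1) or log2(FPKM + 0.1), a replicate block, a spline correction of every library on the GC content and length of GENCODE 29 transcripts, a fit restricted to the 6 libraries compared and the omission of each library. The pipeline was tested on simulated data. Promoter letters were searched on both strands of the RefSeq windows.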

Additional observations from a re-analysis of the deposited data

How the results depend on the processing

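No listed gene that was called changed sign in any of the 19 alternative settings, and at most 5 of the others did so in a setting. The count lower with CDDO-Me (27) stayed within 1.5 times under all of them, from 19 without DMSO 2 to 34. The count lower with PRL-295 (7) was 22 by DESeq2, 11 with the GC and length correction, 19 without a filter, 19 with only the 6 libraries compared and 1 to 17 when a library was left out. The count higher with PRL-295 than with CDDO-Me (2) was 8 by DESeq2, 4 with limma on log2(FPKM + 0.1), 10 without a filter, 0 with the 6 libraries alone and 0 to 3 without a library. Without a filter 2 listed genes were higher with CDDO-Me, 1 was higher with PRL-295 and 1 was lower in the direct comparison, and with a library left out 0 to 1 were higher with CDDO-Me. The median difference of PRL-295 from CDDO-Me (0.30) was 0.178 with the GC and length correction and 0.208 to 0.425 without a library. Pathway genes higher with CDDO-Me (1) numbered 4 by DESeq2, 3 without a filter, 2 with 6 libraries and 0 to 3 without a library, and those higher with PRL-295 (0) numbered 2 without a filter and 1 with 6 libraries. Pathway genes lower with CDDO-Me (0) numbered 3 by DESeq2, 1 with the GC and length correction, 1 with library-size scaling, 1 with each limma fit, 1 with a minimum of 1 CPM and 0 to 3 without a library. Those lower with PRL-295 (0) numbered 1 by DESeq2 and 0 to 1 without a library. The cause of these shifts was not tested.

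The replicate numbers are shared between groups. Deviations of same-numbered libraries correlated at -0.14 to 0.104, and those of differently numbered libraries at -0.12 to 0.154. These ranges were alike, but with 3 libraries per group they cannot exclude a pairing. With a replicate block the counts were 25 lower with CDDO-Me, 3 lower with PRL-295 and 1 higher with PRL-295 than with CDDO-Me. The block ended the calls with CDDO-Me of ADAR (adjusted p = 0.0627), RSAD2 (0.0924), XAF1 (0.0552) and IRF7 (0.0531), those with PRL-295 of OAS2 (0.0937), RSAD2 (0.0855), CMPK2 (0.0824) and ISG15 (0.0606), and that of IFIT3 between the compounds (0.0641). Precision was lowest for HERC5, IFI44L and IRF9, which had 6.59 CPM or less in every library and the 3 highest standard errors of the list with CDDO-Me, 0.947 to 0.998 on the log2 scale.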

Other observations

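The 9 listed genes under 41% GC (SAMD9, IFIT5, IFI44L, SAMD9L, EIF2AK2, DDX60, IFI44, PLSCR1 and DDX58) shared an order of libraries within the compound groups. PRL-295 1 was the highest PRL-295 library for 9 of the 9 and PRL-295 2 the lowest for 8, and CDDO-Me 2 was the highest CDDO-Me library for 8 and CDDO-Me 1 the lowest for 7. The antiviral helicase DDX60 (60.8, 8.04 and 42.2 CPM in PRL-295 1 to 3) and the restriction factor SAMD9L (15.9, 1.18 and 5.11 CPM) are examples of this order. These libraries also had the lowest and highest correlations of level with GC content over all genes in their groups, -0.33 in PRL-295 1 against 0.269 in PRL-295 2, and -0.55 in CDDO-Me 2 against -0.017 in CDDO-Me 1. In DMSO, where these correlations were 0.206 to 0.271, no library was highest for more than 4 of the 9 genes. The limit of 41% was chosen after the values were seen.

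Among the other 42 listed genes CDDO-Me 1 was again often the lowest CDDO-Me library, for 28 of them. CDDO-Me 3 was the highest CDDO-Me library for 28 of them and the lowest for 0, and DMSO 1 was the lowest DMSO library for 27. For MX1 these libraries were at 176 CPM (CDDO-Me 3, where CDDO-Me 1 and 2 had 112 and 107) and at 310.2 CPM (DMSO 1).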
